A study of Mus musculus with 6 samples.

Results

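The 9 genes described here encode receptor chains and transcription factors of interferon signalling: Ifnar1 and Ifnar2, Stat2 and Stat3, and Irf1, Irf2, Irf3, Irf7 and Irf9. They were chosen by name, with earlier results of these data known, and all 9 were among the 12643 genes tested, of 17558 in the table. RNA was sequenced from C2C12, an immortalized line of mouse myoblasts that leaves the cell cycle and fuses into myotubes when serum is lowered. In the control group, shScr, a scrambled short hairpin RNA had been stably introduced. In the hairpin groups the stable hairpin was directed at 1 splice isoform of the pyruvate kinase gene Pkm, Pkm1 for shPkm1 and Pkm2 for shPkm2. All 6 libraries, 2 per group, were made 48 h after the change to a medium with horse serum, insulin, transferrin and selenium, and every group carried a hairpin. The labels do not say whether a line was 1 clone or whether libraries of a group came from separate cultures, so p-values measure only the spread between these libraries, which may be technical.

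Type I interferon binds a receptor made of Ifnar1 and Ifnar2, whose bound kinases Tyk2 and Jak1 phosphorylate Stat factors, Stat2 among them. Stat2 and Irf9 are subunits of ISGF3, a complex that binds the interferon-stimulated response element (ISRE) in the promoters of antiviral genes, while Stat dimers bind the gamma-activated site (GAS). Irf3 is present in resting cells and, once phosphorylated downstream of nucleic acid sensors, switches on interferon genes. Irf7 does the same but is itself interferon-stimulated in most cells, Irf1 is an activator and Irf2 mostly a repressor at the same elements, and Stat3 mainly carries signals of the interleukin-6 family of cytokines.

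Promoter sequences are shown for the genes with the largest differences and for the Irf1 and Irf2 pair, since binding elements for the factors of this pathway can be read in them. All 9 genes had an entry in the RefSeq promoter table (GRCm38.p6), which spans 250 bases before to 50 bases after each start site; Irf1 and Irf9 have 2 windows each, of which the first is shown. The letters searched were TTCNNNGAA for GAS and, for ISRE, a pair of GAAA runs separated by 2 bases, on both strands. A match is given in capitals, 5′ to 3′ on the strand of the gene, and describes letters only, not bound sites.
Stat2, chr10:128270248-128270547, plus strand, ISRE in capitals: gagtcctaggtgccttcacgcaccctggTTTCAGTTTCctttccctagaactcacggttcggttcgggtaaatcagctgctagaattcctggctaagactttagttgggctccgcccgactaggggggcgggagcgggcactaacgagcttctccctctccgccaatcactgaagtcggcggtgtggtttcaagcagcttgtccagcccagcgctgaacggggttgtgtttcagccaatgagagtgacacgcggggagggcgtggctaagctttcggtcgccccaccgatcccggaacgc
Irf7, chr7:141266375-141266674, minus strand, no match: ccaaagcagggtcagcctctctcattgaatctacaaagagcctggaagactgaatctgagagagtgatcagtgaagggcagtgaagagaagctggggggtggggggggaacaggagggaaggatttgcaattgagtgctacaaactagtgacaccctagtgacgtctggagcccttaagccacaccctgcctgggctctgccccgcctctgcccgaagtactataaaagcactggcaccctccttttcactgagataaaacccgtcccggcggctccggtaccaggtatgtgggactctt
Irf9, chr14:55603735-55604034, plus strand, no match: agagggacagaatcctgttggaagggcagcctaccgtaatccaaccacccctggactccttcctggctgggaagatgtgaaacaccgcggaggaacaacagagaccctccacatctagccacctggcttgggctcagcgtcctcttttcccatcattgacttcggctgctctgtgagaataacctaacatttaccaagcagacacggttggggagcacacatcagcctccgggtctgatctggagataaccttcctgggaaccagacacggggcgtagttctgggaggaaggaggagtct
Irf1, chr11:53769764-53770063, plus strand, GAS in capitals: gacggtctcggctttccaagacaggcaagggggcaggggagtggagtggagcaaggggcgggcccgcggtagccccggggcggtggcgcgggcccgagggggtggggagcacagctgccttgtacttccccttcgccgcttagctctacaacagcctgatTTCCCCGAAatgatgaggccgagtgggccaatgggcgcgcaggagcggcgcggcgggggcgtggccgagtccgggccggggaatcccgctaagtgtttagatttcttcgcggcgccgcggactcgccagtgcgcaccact
Irf2, chr8:46739495-46739794, plus strand, ISRE then GAS in capitals: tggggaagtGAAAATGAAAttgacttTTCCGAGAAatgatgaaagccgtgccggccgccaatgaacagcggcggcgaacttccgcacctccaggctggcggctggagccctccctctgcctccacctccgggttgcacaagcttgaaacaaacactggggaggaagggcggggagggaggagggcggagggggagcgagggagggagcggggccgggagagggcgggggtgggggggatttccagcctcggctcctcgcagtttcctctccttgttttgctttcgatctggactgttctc

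The ISRE letters occurred in 2 of the 9 genes, Stat2 (TTTCAGTTTC, read on the other strand, 222 to 213 bases before the start site) and Irf2 (GAAAATGAAA, 241 to 232 bases before it). In the RefSeq table as a whole, 3.44% of 32851 promoters held these letters. GAS letters occurred in 4 of the 9, Irf1 (TTCCCCGAA), Irf2 (TTCCGAGAA), Ifnar1 (TTCACGGAA) and Ifnar2 (TTCCTGGAA), against 8.30% of all promoters. The windows of Stat3, Irf3, Irf7 and Irf9 held neither motif, nor did any member's window hold the kappa-B motif, which 5.78% of all promoters held. Among 12877 promoters of tested genes the shares were 3.09% for ISRE, 6.73% for GAS and 6.94% for kappa-B letters. All these shares count single windows, whereas members and targets are counted as genes, of which Irf1 and Irf9 have 2 windows each. Of the interferon-stimulated targets with an entry, 15 of 37 held ISRE letters and 8 of 37 GAS letters.

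The libraries held between 18216896 and 19796036 estimated counts. CPM are counts divided by the scaled library size. On the log2 CPM scale, r across genes (which are not independent replicates) was 0.988 to 0.994 within groups and 0.860 to 0.921 between them. The check of the labels gave a mixed answer. The Pkm1 transcript (NM_001253883.1) had 15844 and 16970 counts in shScr, 5854 and 5856 in shPkm1 and 6635 and 6909 in the libraries labelled shPkm2, so it was lower in both (log2 fold changes -1.66 and -1.58, edgeR quasi-likelihood adjusted p = 0.00272 and 0.00124). The Pkm2 transcript (NM_011099.3) had 31147 and 43712, 30825 and 37021, and 70489 and 71460 counts, and was not lower in the libraries labelled shPkm2 (log2 fold change 0.63, adjusted p = 0.0656). The name shPkm2 therefore stands for the libraries labelled shPkm2, in which a lower Pkm2 transcript was not seen. All 12 muscle differentiation markers were detected in every library and all 12 were lower in each hairpin group, with summed TPM of 34181 to 44842 in shScr, 16132 to 17432 in shPkm1 and 1088 to 1145 in shPkm2. Summed TPM of 8 leukocyte markers was 9.37 and 17.0, 38.3 and 36.1, and 24.7 and 27.3, with 3 to 6 of them above the floor of 3 counts in a library and Tyrobp at 0 in all 6 libraries. Of the 6 tested, 5 were higher and 1 lower in shPkm1, and 2 were higher, 2 lower and 2 not called in shPkm2. The 6 endothelial markers summed to at most 29 counts and the 6 adipocyte markers to at most 75 counts in any library. The part of cell composition in the results that follow was not tested, and in bulk RNA fewer expressing cells and less RNA per cell cannot be told apart.

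Different levels of response were seen among the 9 genes. Irf7, Stat2 and Irf9 fell by several fold in both hairpin groups, and Irf1 fell by about 1.7-fold in both on the CPM scale and by less with library totals or on log2(TPM + 1). Stat3 and Irf3 fell by less than Irf1 in shPkm1, and in shPkm2 by 1.64-fold and 1.63-fold on the CPM scale, close to Irf1. Their amounts depended on the scaling, and the value of Stat3 in shPkm1 changed sign on log2(TPM + 1). The receptor chains went the other way or were split: Ifnar1 rose in both groups and Ifnar2 rose in shPkm1. Irf2 passed the test in neither.

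In shPkm1 against shScr 8 of the 9 genes passed the test (edgeR quasi-likelihood, adjusted p under 0.05 over all genes), where 63.1% of all tested genes did. Of these, 2 were higher, where 31.8% of all genes were, and 6 were lower, where 31.4% were. In shPkm2 against shScr 7 of 9 passed (background 68.0%), 1 higher (background 33.9%) and 6 lower (background 34.2%). Between the hairpin groups 4 of 9 passed (background 53.0%), 2 higher in the libraries labelled shPkm2 (background 25.7%) and 2 lower (background 27.3%). Without the first shPkm2 library only 2 of 9 passed in that last comparison. With most of the transcriptome called, a count of calls says little by itself, and the sizes are given gene by gene. The median log2 fold change of the 9 genes was -0.48 in shPkm1, -0.72 in shPkm2 and -0.00 between the hairpin groups, beside -0.00, 0.01 and 0.00 over all tested genes. CPM of the groups did not overlap for 9 of 9 genes in shPkm1 against shScr (81.0% of all genes), 9 of 9 in shPkm2 against shScr (83.9%) and 7 of 9 between hairpin groups (79.8%). Both comparisons with shScr use the same 2 control libraries, and their values are given side by side for that reason. No line without a hairpin was sequenced, so lower levels in the hairpin groups cannot be told apart from higher levels in shScr. Words such as fell, rose and reduced describe values relative to shScr only.

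**Figure D1:**
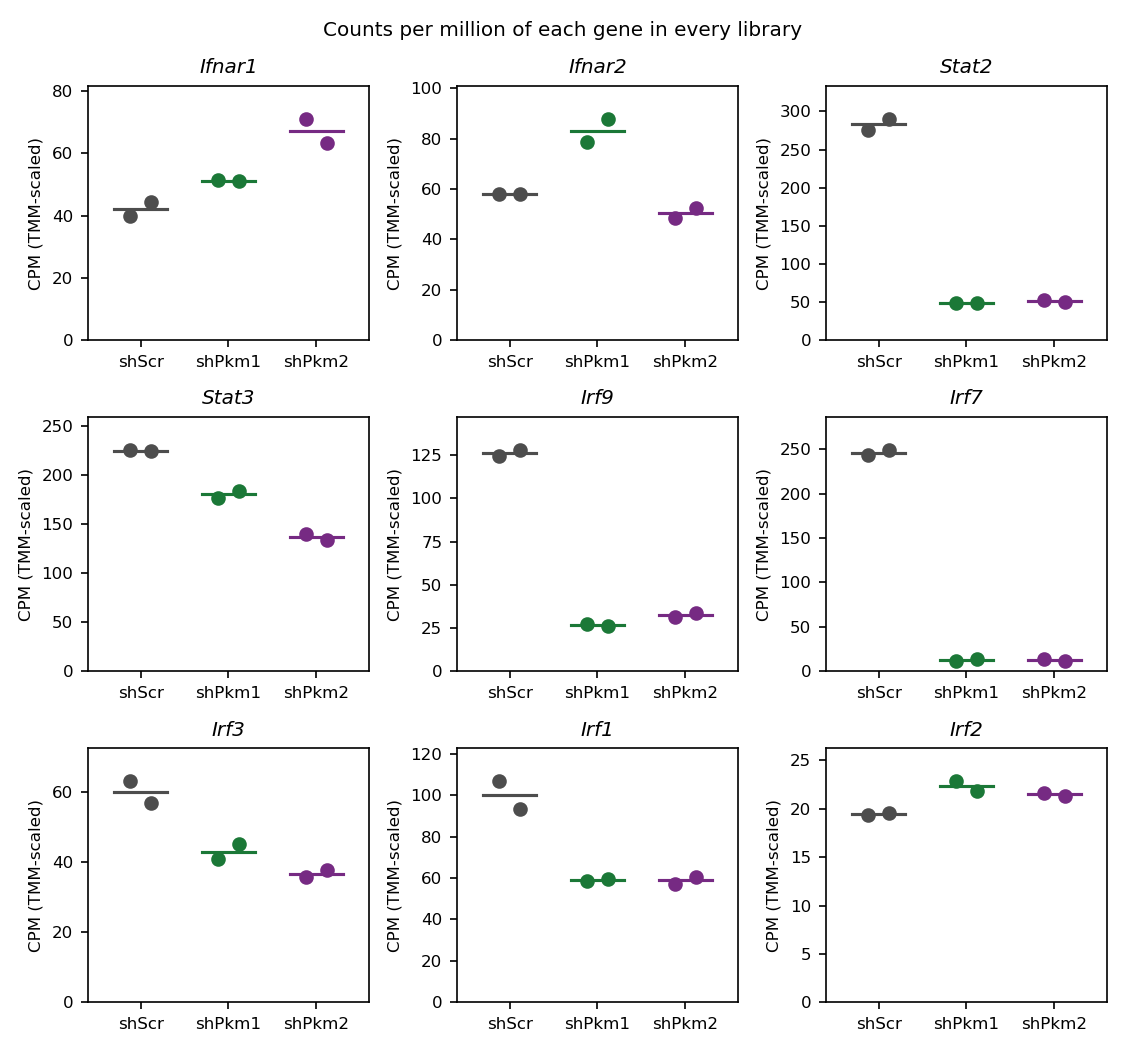
CPM of the 9 genes (y axis, TMM-scaled, starting at 0) in the 2 libraries of each group (points), with the group mean as a bar. Irf7 falls from 243.0 and 248.7 to between 11.5 and 13.98, while Ifnar1 runs from 40.0 in shScr to 70.9 in the libraries labelled shPkm2.

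Scaling mattered for the smaller differences. CPM here use the trimmed mean of M values (TMM), which centres most genes near no change. With library totals in its place, the median of all genes moved by 0.19 on the log2 scale in shPkm1, 0.32 in the libraries labelled shPkm2 and 0.13 between the hairpin groups, and the share of calls that were higher went from 50.3% to 65.8%, from 49.8% to 69.3% and from 48.4% to 61.3%. On log2(TPM + 1), where TPM is the deposited abundance scaled for length, the median moved by 0.31, 0.36 and 0.06 and the shares were 78.1%, 75.7% and 53.8%.

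Ifnar1, the low-affinity chain that binds Tyk2, lies at chr16:91485238-91507441 on the plus strand (GRCm38). Its CPM were 40.0 and 44.2 in shScr, 51.4 and 51.0 in shPkm1, and 70.9 and 63.4 in the libraries labelled shPkm2. The 3 groups did not overlap and were ordered shScr, shPkm1, shPkm2. Levels of Ifnar1 in shPkm2 exceeded those in shScr (log2 fold change 0.67, SE 0.103, adjusted p = 6.73e-05) and those in shPkm1 (0.39, SE 0.102, adjusted p = 0.00547). The rise in shPkm1 was smaller, 0.28 (SE 0.104, adjusted p = 0.0310), and was not called by DESeq2 (adjusted p = 0.0600) or without the first shScr library (0.21, adjusted p = 0.105), the first shPkm1 library (adjusted p = 0.107) or the second shPkm1 library (adjusted p = 0.0977). The rise of Ifnar1 in shPkm1 was larger, 0.47, with library totals (adjusted p = 0.00320) and was 0.65 on log2(TPM + 1) (limma adjusted p = 0.00143). In shPkm2 those values were 1.00 and 1.09. The difference between hairpin groups was not called without the first shPkm2 library (0.30, adjusted p = 0.1004).

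Ifnar2, the chain that binds Jak1 and gives high affinity, lies beside it at chr16:91372783-91405589 on the plus strand. CPM of Ifnar2 were 58.1 and 58.1 in shScr, 78.7 and 87.7 in shPkm1, and 48.7 and 52.5 in shPkm2. The shPkm1 libraries stood above the other 4. Ifnar2 rose in shPkm1 (log2 fold change 0.52, SE 0.0992, adjusted p = 0.000529; 0.71 with library totals and 0.90 on log2(TPM + 1)) and was lower in shPkm2 than in shPkm1 by 0.72 (log2 fold change -0.72, SE 0.0990, adjusted p = 4.35e-05). Against shScr the value in shPkm2 was -0.20 (95% interval -0.41 to 0.02, adjusted p = 0.0944), and its sign turned with library totals (0.13) and on log2(TPM + 1) (0.14), neither of which was called. The ratio of Ifnar2 to Ifnar1 TPM within a library, which no scaling between libraries can move, was 4.67 and 4.37 in shScr, 5.05 and 5.53 in shPkm1, and 2.07 and 2.49 in shPkm2. The ratio was thus lowest in both libraries labelled shPkm2. Ifnar2 shares 13869 bases with the gene model Gm21970 on the same strand, which was not analysed here.

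Stat2, the subunit of ISGF3 that carries its transactivation domain, lies at chr10:128270559-128292849 on the plus strand. Its CPM were 276 and 290 in shScr, 48.5 and 49.4 in shPkm1, and 53.1 and 50.1 in the libraries labelled shPkm2, from 4357 and 5129, 910 and 978, and 1128 and 1049 counts. All 4 hairpin libraries lay far below both controls and close to one another. Stat2 fell by 5.78-fold in shPkm1 (log2 fold change -2.53, SE 0.0999, adjusted p = 3.84e-10) and by 5.49-fold in shPkm2 (-2.46, SE 0.0993, adjusted p = 1.99e-10). Between the hairpin groups the difference was 0.08 with a 95% interval of -0.14 to 0.29 (adjusted p = 0.541).

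Stat3, the factor activated through gp130 receptors, lies at chr11:100885098-100939540 on the minus strand. CPM of Stat3 were 225 and 224 in shScr, 177 and 183 in shPkm1, and 140 and 133 in the libraries labelled shPkm2. The groups did not overlap on this scale, with shScr highest. The fall in shPkm1 was 0.32 on the log2 scale (log2 fold change -0.32, SE 0.0938, adjusted p = 0.00961), but it was -0.12 and not called with library totals (adjusted p = 0.295), -0.28 and not called without the first shPkm1 library (adjusted p = 0.0952), and turned to 0.07 on log2(TPM + 1). In shPkm2 the log2 fold change was -0.72 (SE 0.0943, adjusted p = 1.67e-05), with library totals it was -0.39 (adjusted p = 0.00317), and on log2(TPM + 1) it was -0.26 and not called (limma adjusted p = 0.0501). Stat3 was lower in shPkm2 than in shPkm1 by 0.40 (log2 fold change -0.40, SE 0.0941, adjusted p = 0.00297). Within a library the ratio of Stat2 to Stat3 TPM was 1.27 and 1.33 in shScr, 0.283 and 0.280 in shPkm1, and 0.396 and 0.387 in shPkm2. Stat2 was thus the more abundant of the pair only in the control libraries. Stat3 overlaps Stat5a by 72 bases on the opposite strand, and strandedness of the counting is not given in the sources used here.

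Irf9, the DNA-binding subunit of ISGF3, lies at chr14:55603571-55610030 on the plus strand. CPM of Irf9 were 124 and 128 in shScr, 27.3 and 26.1 in shPkm1, and 31.5 and 33.8 in the libraries labelled shPkm2. The control libraries stood well above the other 4, and the shPkm1 libraries were lowest. Irf9 fell by 4.72-fold in shPkm1 (log2 fold change -2.24, SE 0.0996, adjusted p = 1.20e-09) and by 3.86-fold in shPkm2 (-1.95, SE 0.0976, adjusted p = 1.47e-09). The difference between hairpin groups, 0.29 (95% interval 0.07 to 0.51, adjusted p = 0.0266), was not called by DESeq2 (adjusted p = 0.0538) or without the first shPkm1 library (adjusted p = 0.0901), the second (0.154), the first shPkm2 library (0.0768) or the second (0.210). Irf9 overlaps the neighbouring gene Rnf31 by 123 bases on the same strand, and Rnf31 had 483 to 917 counts.

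TPM allows levels of different genes to be compared per length. In shScr the mean TPM was 89.7 ± 10.6 for Stat2 and 73.8 ± 7.63 for Irf9 (SD, n = 2), whereas in the 4 hairpin libraries both lay between 19.3 and 25.9. The ratio of Irf9 to Stat2 TPM was 0.832 and 0.815 in shScr, 1.02 and 0.960 in shPkm1, and 1.07 and 1.23 in the libraries labelled shPkm2. Stat2 was thus the higher of the pair in both control libraries and in the second shPkm1 library, and Irf9 in the other 3.

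**Figure D2:**
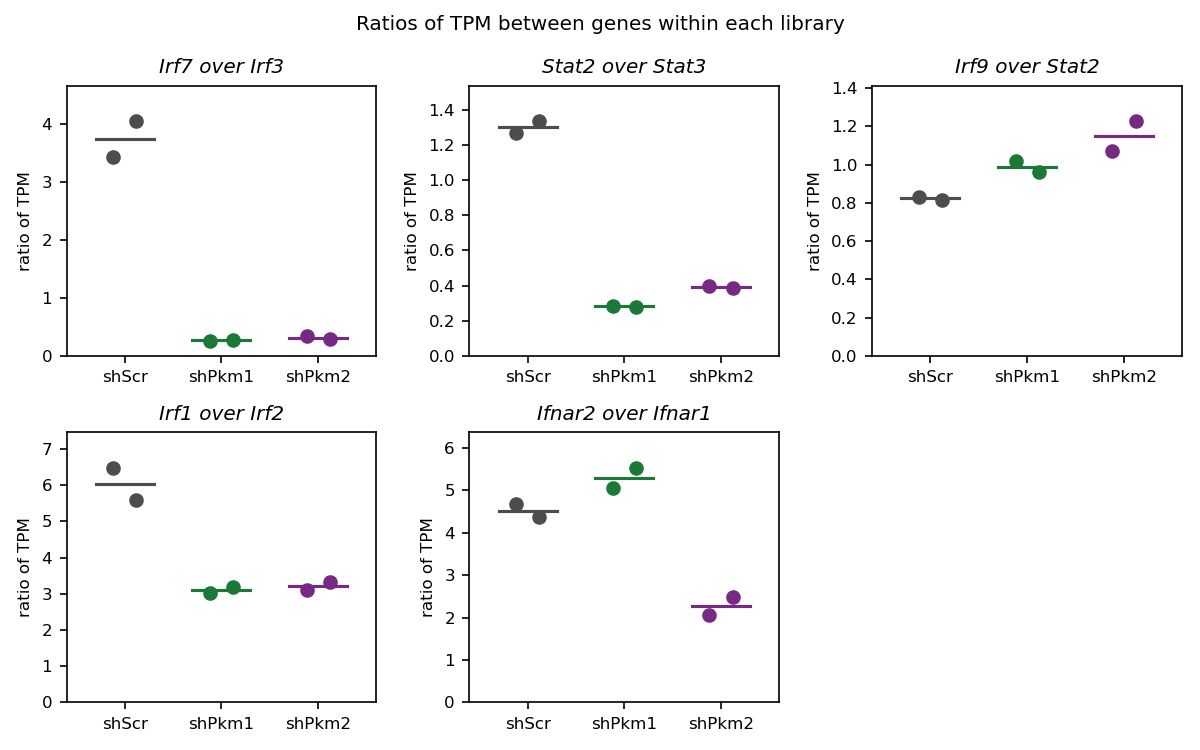
Ratios of deposited TPM between pairs of genes within each library (y axes start at 0; points are libraries, bars are group means). The ratio of Irf7 to Irf3 is above 3 in both shScr libraries and below 0.4 in the other 4, and the ratio of Ifnar2 to Ifnar1 is lowest in the libraries labelled shPkm2.

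Irf7, the factor that amplifies interferon production, lies at chr7:141262706-141266481 on the minus strand. It had 3834 and 4403 counts in shScr, 216 and 273 in shPkm1, and 297 and 254 in the libraries labelled shPkm2. In CPM these were 243.0 and 248.7, 11.5 and 13.8, and 13.98 and 12.1. The control libraries were far above the other 4, while the hairpin groups overlapped each other. Irf7 fell by 19.4-fold in shPkm1 (95% interval 16.1 to 23.4, adjusted p = 3.81e-11) and by 18.8-fold in shPkm2 (95% interval 15.6 to 22.7, adjusted p = 1.16e-11), the largest differences among the 9 genes. In rank, 0.395% of all tested genes had a lower or equal log2 fold change in shPkm1, and 2.46% in shPkm2. Between the hairpin groups the difference was 0.04 (95% interval -0.24 to 0.32, adjusted p = 0.794). Irf7 overlaps Phrf1 by 45 bases on the opposite strand.

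Irf3, the constitutive relative of Irf7, lies at chr7:44997648-45002848 on the plus strand. CPM of Irf3 were 63.1 and 56.8 in shScr, 40.8 and 45.2 in shPkm1, and 35.8 and 37.7 in the libraries labelled shPkm2. The groups did not overlap on this scale. Irf3 fell by 0.48 on the log2 scale in shPkm1 (log2 fold change -0.48, SE 0.105, adjusted p = 0.00138) and by 0.71 in shPkm2 (-0.71, SE 0.105, adjusted p = 5.04e-05). With library totals the values were -0.28 (adjusted p = 0.0294) and -0.38 (adjusted p = 0.00531), and on log2(TPM + 1) they were -0.09 (limma adjusted p = 0.448) and -0.21 (0.0904), neither of them called. Between the hairpin groups the log2 fold change was -0.23 (95% interval -0.45 to 0.00, adjusted p = 0.0871), which was called when only these 4 libraries were fitted (adjusted p = 0.0325), without the first shScr library (0.0337) and without the second (0.0348). Within a library Irf7 had 3.43 and 4.04 times the TPM of Irf3 in shScr, 0.257 and 0.280 times in shPkm1, and 0.347 and 0.283 times in shPkm2. Irf7 was thus the more abundant of the pair in the controls and the less abundant in all 4 hairpin libraries. Irf3 shares 1065 bases with Bcl2l12 on the opposite strand, which had 134 to 209 counts.

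Irf1, an activator induced by interferon-gamma, lies at chr11:53770014-53778374 on the plus strand. CPM of Irf1 were 107 and 93.2 in shScr, 58.7 and 59.3 in shPkm1, and 57.1 and 60.5 in the libraries labelled shPkm2. Both hairpin groups lay below the controls and overlapped each other. Irf1 fell by 1.69-fold in shPkm1 (log2 fold change -0.76, SE 0.101, adjusted p = 2.63e-05) and by 1.70-fold in shPkm2 (-0.76, SE 0.101, adjusted p = 1.73e-05). The fall of Irf1 was smaller, but still called, with 2 other scalings: -0.56 and -0.44 with library totals (adjusted p = 0.000286 and 0.00150), and -0.36 and -0.30 on log2(TPM + 1) (limma adjusted p = 0.00851 and 0.0193). Between the hairpin groups the 95% interval ran from -0.22 to 0.21 (adjusted p = 0.977).

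Irf2, which competes with Irf1 at shared elements, lies at chr8:46739732-46847458 on the plus strand. It had the fewest CPM of the 9 genes in shScr, 19.4 and 19.5, with 22.8 and 21.8 in shPkm1 and 21.7 and 21.3 in the libraries labelled shPkm2. The control libraries were the lowest, by a small margin. Irf2 was not called in shPkm1 (log2 fold change 0.20, 95% interval -0.04 to 0.43, adjusted p = 0.134) or in shPkm2 (0.14, -0.09 to 0.38, adjusted p = 0.262). It was called higher with library totals (0.39, adjusted p = 0.0115, and 0.47, adjusted p = 0.00321) and on log2(TPM + 1) (0.55, limma adjusted p = 0.00410, and 0.56, adjusted p = 0.00297). The ratio of Irf1 to Irf2 TPM was 6.48 and 5.60 in shScr, 3.02 and 3.20 in shPkm1, and 3.09 and 3.32 in shPkm2. In every hairpin library the ratio was lower than in either control.

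**Figure D3:**
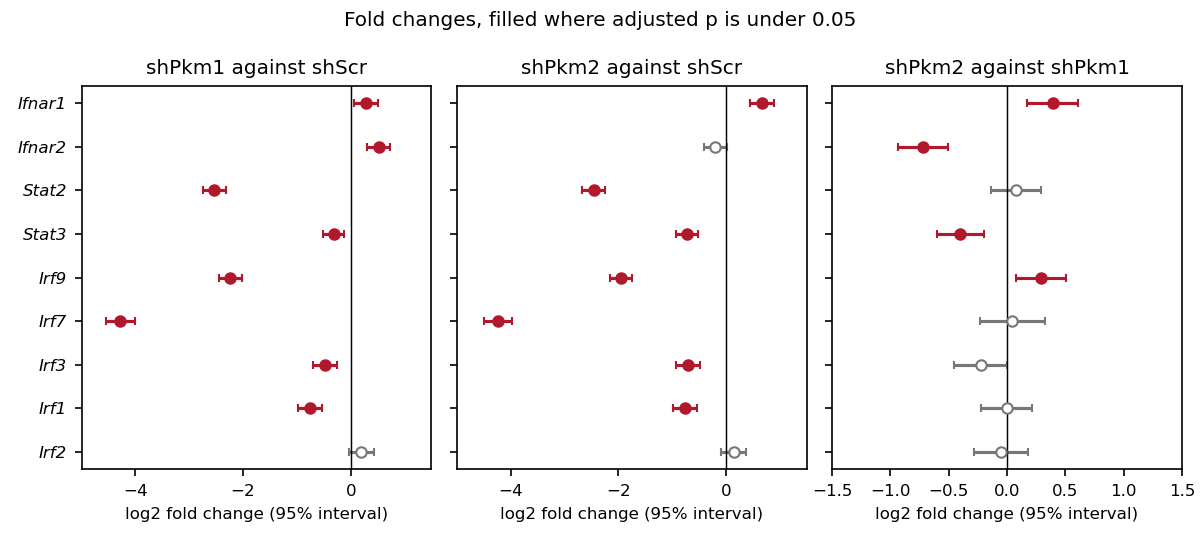
Log2 fold change (x axis) of each of the 9 genes in the 3 comparisons, with the 95% interval from the edgeR fit and filled points where the adjusted p was under 0.05. Irf7, Stat2 and Irf9 lie below -1.9 in both comparisons with shScr, and the third panel has a narrower x axis, from -1.5 to 1.5.

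The order of the genes by TPM differed between controls and hairpin libraries. In shScr mean TPM ran from 193 ± 19.9 for Irf7 (SD, n = 2) through Stat2 (89.7 ± 10.6), Irf9 (73.8 ± 7.63), Stat3 (68.9 ± 5.54), Irf1 (65.8 ± 0.580), Ifnar2 (64.2 ± 5.52), Irf3 (51.8 ± 0.629) and Ifnar1 (14.2 ± 1.89) to Irf2 (11.0 ± 1.04). The neighbours Irf9, Stat3, Irf1 and Ifnar2 in that order lay within their spread of one another. In shPkm1 Ifnar2 led with 120 ± 5.37, followed by Stat3 with 72.5 ± 1.17, and Irf7 was last with 13.1 ± 1.19. In shPkm2 Ifnar2 led with 70.9 ± 1.32, followed by Stat3 with 57.4 ± 3.97, and Irf7 was last with 14.1 ± 2.00. Irf7 thus went from the first to the last of the 9 in both hairpin groups.

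The table divides the 9 genes into 35 RefSeq transcripts, of which 28 were tested among 33433. In shPkm1 against shScr 9 of the 28 were called, where 10.8% of all transcripts were. In shPkm2 against shScr 11 were called (background 17.2%) and between the hairpin groups 2 (background 7.91%). These counts were less stable than those of genes. In shPkm1 the count was 3 without the first shPkm1 library and 5 without each of the other 5 libraries in turn. For shPkm2 the numbers were 6 and 7 without the first and second shScr library and 4 without either shPkm2 library, and between hairpin groups it was 0 without any 1 of the 4 libraries compared.

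The tested transcripts of Irf9 took different shares of its counts in controls and hairpin libraries. NM_001159418.1 took 53.1% and 49.3% of the Irf9 counts in shScr, 23.4% and 36.9% in shPkm1, and 23.6% and 25.5% in the libraries labelled shPkm2. NM_008394.3 took 35.3% and 34.4%, 59.4% and 43.6%, and 62.7% and 51.2%. In all 4 hairpin libraries the first was below and the second above its share in either control. The first fell by 2.97 on the log2 scale in each group (log2 fold changes -2.97, adjusted p = 0.00728, and -2.97, adjusted p = 0.00315) and the second less, with -1.64 (adjusted p = 0.0148) and -1.22 (adjusted p = 0.0188), but the difference in proportion itself was not tested. Both main transcripts of Irf7 fell: NM_016850.3 had log2 fold changes of -4.52 and -4.16 (adjusted p = 0.00112 and 0.000549) and NM_001252601.1 of -4.04 and -4.50 (adjusted p = 0.00383 and 0.00133).

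For Ifnar2, NM_001110498.1 took 81.4% and 81.1% of counts in shScr, 80.6% and 81.8% in shPkm1, and 70.6% and 70.7% in the libraries labelled shPkm2. This transcript was higher in shPkm1 (log2 fold change 0.55, adjusted p = 0.0342) and lower in shPkm2 than in shPkm1 (-0.92, adjusted p = 0.0116). Most Ifnar1 counts, 68.2% to 75.1%, were assigned to XR_384931.2, a non-coding RefSeq model, and 24.9% to 31.8% to the coding transcript NM_010508.2. XR_384931.2 rose in shPkm2 (0.73, SE 0.0944, edgeR adjusted p = 0.0102). The value of NM_010508.2 was close to it but had a larger SE and was not called (0.62, SE 0.237, edgeR adjusted p = 0.164). The main Stat3 transcript NM_213659.3 was lower in shPkm2 than in shPkm1 (-0.46, adjusted p = 0.0238). Estimates for transcripts that share most of their sequence are uncertain, since reads in shared exons are divided by the estimation.

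**Figure D4:**
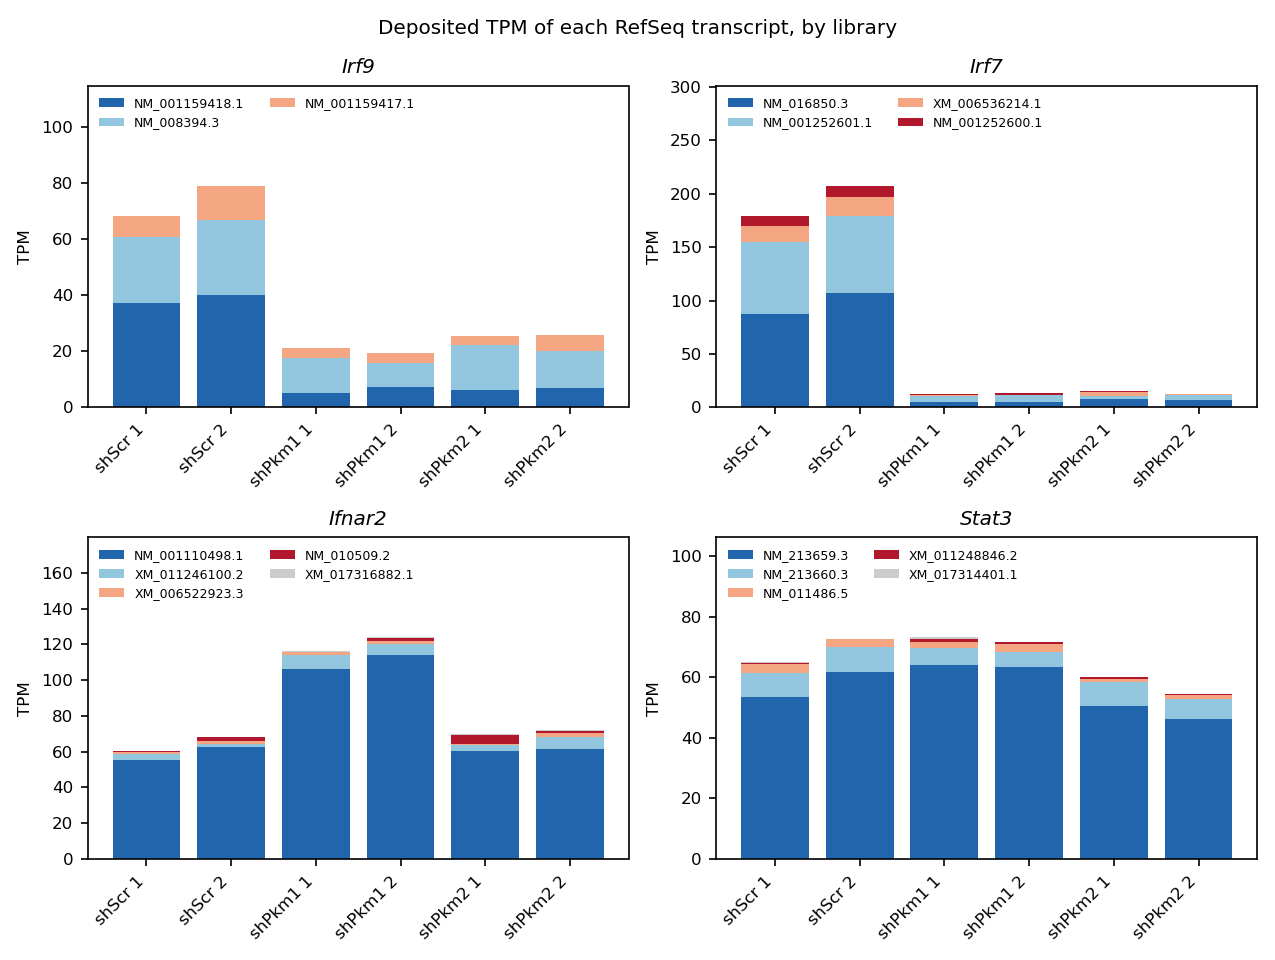
Deposited TPM (y axis, from 0) of each RefSeq transcript of Irf9, Irf7, Ifnar2 and Stat3, stacked, in the 6 libraries. Every Irf7 transcript is small in the 4 hairpin libraries, NM_008394.3 rather than NM_001159418.1 is the tallest part of the Irf9 bars there, and the Ifnar2 bars are tallest in shPkm1.

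Upstream in the pathway, type I interferon genes were at the floor of detection: 5 were in the table, none passed the filter, and no library had more than 2 counts of any of them (Ifnb1 had 2 and 1 counts in shScr and 0 in the other 4 libraries). Counts of calls in the lists that follow stand against the all-gene shares given above. These lists, too, were chosen with earlier results of these data known. Among 8 tested chains of other cytokine receptors (for interferon-gamma, for the interleukin-10 family and of the gp130 family), 5 were higher, 1 lower and 2 not called in shPkm1 (median log2 fold change 1.02), and 4, 2 and 2 in the libraries labelled shPkm2 (median 0.25). The 2 lower in shPkm2 were 1 with library totals and 0 on log2(TPM + 1). Il11ra1, a receptor chain for interleukin-11, rose in shPkm1 (2.59, adjusted p = 2.08e-08), was not called in shPkm2 (-0.31, adjusted p = 0.157), and was lower in shPkm2 than in shPkm1 (-2.90, adjusted p = 5.21e-09). The oncostatin M receptor Osmr rose in both (1.89, adjusted p = 1.10e-08, and 1.13, adjusted p = 7.12e-07), as did Il6ra (1.01, adjusted p = 0.000446, and 1.52, adjusted p = 7.24e-06). Of the interferon-gamma receptor chains, Ifngr1 rose in both (1.02, adjusted p = 5.35e-06, and 0.55, adjusted p = 0.000773). Ifngr2 was lower in both (-0.66, adjusted p = 5.94e-05, and -0.58, adjusted p = 0.000129), but on log2(TPM + 1) its values were -0.26 (limma adjusted p = 0.0432) and -0.12 (0.320, not called).

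Of the 4 Jak kinases 2 were higher and 1 lower in shPkm1 (median 0.21), and 3 and 1, respectively, in the libraries labelled shPkm2 (median 0.69). Jak1 rose by 0.57 (adjusted p = 0.000358) and 0.67 (adjusted p = 7.03e-05) and Jak2 by 1.66 (adjusted p = 8.98e-08) and 1.41 (adjusted p = 2.03e-07). Tyk2, the kinase on Ifnar1, fell by 0.41 (-0.41, adjusted p = 0.00539) and 0.72 (-0.72, adjusted p = 6.97e-05) on the log2 scale, although it was called in neither on log2(TPM + 1), and in shPkm1 neither with library totals nor without the first shPkm1 library. Of 3 other tested Stat genes 2 were lower and 1, Stat6, was not called in each group (medians -1.11 and -0.79), with log2 fold changes of -1.29 and -0.79 for Stat5a and -1.11 and -0.99 for Stat5b. On log2(TPM + 1) these were -0.85 and -0.32 for Stat5a and -0.67 and -0.51 for Stat5b, all called. Stat6 was called lower in shPkm1 without the second shScr library (-1.10, adjusted p = 0.0191). Another Irf gene, Irf5, was lower in both (-1.17, adjusted p = 0.00108, and -0.94, adjusted p = 0.00334), at 34 to 69 counts, but was not called in shPkm2 on log2(TPM + 0.1).

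Of all tested genes, 31.8% were higher and 31.4% lower in shPkm1, and 33.9% and 34.2% in the libraries labelled shPkm2. Among 17 inhibitors of Stat factors and their receptors, 7 were higher, 5 lower and 5 not called in shPkm1 (median 0.19), and 9, 5 and 3 in the libraries labelled shPkm2 (median 0.31). The shPkm1 counts of inhibitors are near the all-gene shares and are no result about the list. Without the first shPkm1 library 4 were higher and 3 lower in shPkm1, and on log2(TPM + 1) 11 were higher and 3 lower. Usp18, a feedback inhibitor that binds Ifnar2 and is itself interferon-stimulated, fell from 4013 and 4704 counts to 99 and 100 in shPkm1 and 167 and 165 in shPkm2 (-5.65, adjusted p = 5.00e-12, and -5.05, adjusted p = 3.66e-12). Socs1, which blocks Jak kinases, was lower (-0.50, adjusted p = 0.00855, and -0.92, adjusted p = 9.45e-05), but in shPkm1 it was called neither with library totals (-0.31, adjusted p = 0.0965), nor on log2(TPM + 1) (-0.09, limma adjusted p = 0.595), nor without the first shPkm1 library (-0.41, adjusted p = 0.0879). Socs7 fell (-1.18 and -1.64), and Socs5 rose by 0.88 and 1.01. Socs3, which blocks gp130 signalling, was at the threshold in shPkm1 (0.32, adjusted p = 0.0446), where it was not called without the first shScr library (0.14, adjusted p = 0.294), without any 1 of the 4 hairpin libraries or by DESeq2. In shPkm2 Socs3 was not called (0.04, adjusted p = 0.793), but it was with library totals (0.36, adjusted p = 0.0371) and on log2(TPM + 1) (0.49, limma adjusted p = 0.0158). Among 17 activators of Irf3 and Irf7, 4 were higher, 8 lower and 5 not called in shPkm1 (median -0.18), and 5, 5 and 7 in shPkm2 (median 0.11). The shPkm2 counts of activators are near the all-gene shares and are no result about the list. The number higher was 1 in shPkm1 without the first shPkm1 library, and 3 in shPkm2 without the first shScr or the first shPkm2 library. Library totals and TPM gave more activators higher and fewer lower: on log2(TPM + 1) 7 were higher and 4 lower in shPkm1, and 10 and 4 in shPkm2, and with library totals 7 and 5, and 10 and 4. The RNA sensors Ifih1 (-3.18 and -2.25) and Ddx58 (-2.13 and -2.11), which are also interferon-stimulated targets, were the lowest of these, while the kinase gene Ikbke was higher by 0.99 (adjusted p = 0.00474) and 0.76 (adjusted p = 0.0197) and the receptor Tlr4 by 0.53 (adjusted p = 0.00639) and 1.00 (adjusted p = 3.07e-05). The value of Ikbke moved with the control left out (53 and 137 counts): in shPkm1 it was 0.53 without the first shScr library (adjusted p = 0.00758) and 1.73 without the second (adjusted p = 3.49e-10), and in shPkm2 1.504 without the second (adjusted p = 1.76e-08). Ikbke was not called in shPkm1 without the first shPkm1 library (0.91, adjusted p = 0.0546), nor in shPkm2 without the first shScr library (0.30, adjusted p = 0.130) or the first shPkm2 library (0.74, adjusted p = 0.0686), and Tlr4 not in shPkm1 without the first shPkm1 library (0.40, adjusted p = 0.0765).

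Downstream, of 45 tested interferon-stimulated targets, 44 were lower and 1 (Ifi27) not called in shPkm1, and all 45 were lower in the libraries labelled shPkm2, with median log2 fold changes of -2.81 and -2.87 beside the all-gene medians given above. Ifi27 had a log2 fold change of 0.23 in shPkm1 (adjusted p = 0.191) and was called higher there without the first shScr library (0.52, adjusted p = 6.63e-05), with library totals (0.43, adjusted p = 0.0142) and on log2(TPM + 1) (0.67, limma adjusted p = 0.000536). In shPkm2 it was -0.52 (adjusted p = 0.00721), but -0.02 on log2(TPM + 1) (limma adjusted p = 0.886) and -0.23 without the first shScr library (adjusted p = 0.0651), and it was not called without the first shPkm2 library (-0.39, adjusted p = 0.0859). On log2(TPM + 1) 43 targets were lower in shPkm1 and 42 in shPkm2. The largest falls were those of the antiviral gene Rsad2 (-7.12, adjusted p = 2.47e-11) and its neighbour Cmpk2 (-6.76, adjusted p = 1.38e-10) in shPkm1, and of Ifit3 (-5.50, adjusted p = 4.88e-12) and Ifit3b (-5.21, adjusted p = 8.04e-12) in shPkm2. These 4 genes fell in the other group as well, Rsad2 and Cmpk2 with -4.19 and -3.01 in shPkm2, and Ifit3 and Ifit3b with -4.64 and -4.45 in shPkm1. On log2(TPM + 1), which understates changes of low genes, Rsad2 and Cmpk2 had -4.23 and -3.77 in shPkm1. Ifit3 and Ifit3b are near-identical copies, so their separate values are uncertain. Of 24 tested targets of interferon-gamma and Irf1, 23 were lower and 1 higher in shPkm1 (median -2.31) and 22 lower, 1 higher and 1 not called in shPkm2 (median -2.74). Ido1 had 50 and 20 counts in shScr and 0 in the other 4 libraries, which is at least 26.9-fold and 29.4-fold lower against a floor of 3 counts over the group, and with Ido1 at that bound the medians were also -2.31 and -2.74. The GTPase gene Igtp fell in both groups (-4.77, adjusted p = 4.81e-11, and -4.87, adjusted p = 1.16e-11), as did the chemokine gene Cxcl9 (-2.86, adjusted p = 2.68e-08, and -5.05, adjusted p = 4.09e-10), while the adhesion gene Vcam1 rose by 1.14 (adjusted p = 3.34e-06) and 1.67 (adjusted p = 5.13e-08).

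Of 24 tested Stat3 targets, 14 were higher, 7 lower and 3 not called in shPkm1 (median 0.36), where 31.8% of all genes were higher and 31.4% lower, and 8, 9 and 7 in the libraries labelled shPkm2 (median -0.10), where 33.9% and 34.2% were. The shPkm2 counts are near those shares and are no result about the list. The 7 lower in shPkm1 were 4 without the second shPkm1 library and with library totals, 2 on log2(TPM + 1) and 1 on log2(TPM + 0.1). In shPkm2 the 9 lower were 6 with library totals and 5 on log2(TPM + 1), and the 8 higher were 11 and 12. The cyclin gene Ccnd1, which many growth signals raise, rose in both groups (2.12, adjusted p = 3.93e-09, and 3.06, adjusted p = 5.13e-11), as did Fosl1 (0.57, adjusted p = 0.000418, and 2.30, adjusted p = 5.37e-10). Serpina3n rose in shPkm1 (2.56, adjusted p = 0.000106; 1.27 on log2(TPM + 1)) and was not called in shPkm2 (-0.44, adjusted p = 0.497), at 5 to 50 counts. The acute-phase gene Lbp (-3.18, adjusted p = 1.00e-08) and Cebpd (-1.34, adjusted p = 1.89e-06) fell in shPkm2. In shPkm1 Lbp (-0.61) and Cebpd (-0.67) were lower too, but neither was called there on log2(TPM + 1) (-0.19 and -0.27). Fos was lower in both (-0.85 and -0.96), though not called in shPkm1 on log2(TPM + 0.1) (-0.44, limma adjusted p = 0.0733), and so was Bcl2l1 (-0.68 and -0.45), though in shPkm2 it was -0.13 with library totals (adjusted p = 0.296) and -0.00 on log2(TPM + 1) (limma adjusted p = 0.994), neither of them called.

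**Figure D5:**
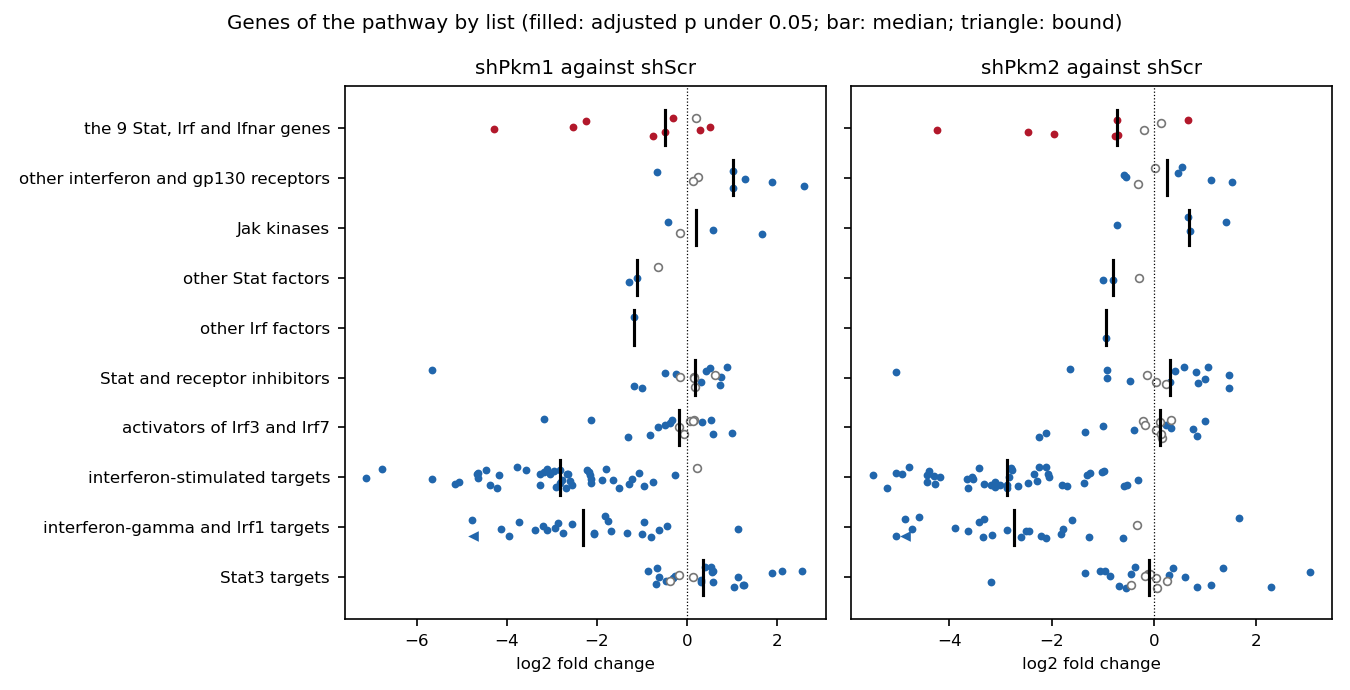
Log2 fold change (x axis) of each tested gene of the 9 and of the other pathway lists (rows) in the 2 comparisons with shScr, filled where the adjusted p was under 0.05, with list medians as bars. The triangle is Ido1 at its bound, since it had 0 counts in the hairpin libraries, and the interferon-stimulated targets lie left of 0, except Ifi27 in shPkm1 (0.23, not called), with medians of -2.81 and -2.87.

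To describe genes with a like pattern, the 3 tested genes nearest to each member were found by Euclidean distance between log2 CPM centred on each gene's mean, over 6 libraries that share depth and groups. Nearest to Irf7 were Zbp1 (distance 0.366), Ifit1 (0.431) and Irgm2 (0.496). Nearest to Stat2 were Bglap2 (0.132), Trim21 (0.298) and Herc6 (0.353), and nearest to Irf9 were Jam3 (0.239), Rnf213 (0.286) and Ddx58 (0.292). Zbp1, Ifit1, Trim21, Herc6 and Ddx58 are in the list of interferon-stimulated targets. Nearest to the other members were Rps6ka2 (0.0487) for Stat3, Prpf19 (0.0525) for Irf1, Lypla2 (0.0513) for Irf3, Zfyve9 (0.0523) for Irf2, Kat14 (0.0629) for Ifnar1 and Lss (0.136) for Ifnar2. A distance of this kind is a description of these 6 libraries.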

How the data were processed

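RNA of 6 libraries was analysed, grouped by the sample titles. The deposited table gives, per the file headers, estimated counts, TPM and FPKM of 57920 RefSeq transcripts in each library. The submitters' processing notes name the build mm10 and the tools HISAT, StringTie, Bowtie, RSEM and DESeq2, without versions or roles. The deposited FPKM values, scaled by the authors for length and depth, were not used, nor were 9 columns of group means. The deposited TPM values were summed per gene to compare levels. Deposited estimated counts were summed per NCBI gene (17558, of which 113 without a symbol held at most 0.148% of a library) and rounded to whole numbers.

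Genes passing filterByExpr (minimum count 10, minimum total 15) were fitted in edgeR 4.0.16 (R 4.3.3) with TMM scaling and 1 coefficient per group over all 6 libraries. Contrasts used the two-sided quasi-likelihood test, adjusted by Benjamini-Hochberg over 12643 genes, with a threshold of 0.05. Standard errors were taken as the absolute log2 fold change over the square root of the F statistic. Transcripts were fitted separately. The code was tested on simulated data. A permutation of 2 against 2 libraries cannot give a p below 0.333, so none was used. A count of 3 was taken as the floor, for counting error only.

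The members, pathway lists and marker lists were chosen with earlier results of these data known. Named genes were the 9 members, Pkm, Jak1, Tyk2, Usp18, Socs1, Socs3, up to 2 highest and 2 lowest called genes per pathway list in each comparison with shScr, and the 3 genes nearest to each member. Ifngr1, Ifi27, Stat6, Tor3a and Isg20 were named after their values were seen. Ddx58, Ifih1, Il6st, Osmr, Socs3 and Usp18 are in 2 lists each. Some genes of the lists are not reported here. Promoters came from RefSeq (GRCm38.p6), and gene positions and overlaps from GENCODE on GRCm38. Replicate numbers were checked for pairing and did not pair the libraries. Alternatives were DESeq2 size factors, library totals, no filter, DESeq2 1.42.0, a minimum mean of 50 counts, only the groups compared, a replicate block, each library left out, and limma 3.58.1 on log2(TPM + 1) and log2(TPM + 0.1).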

Additional observations from a re-analysis of the deposited data

How the results depend on the processing

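Of 405 fold changes of the 9 genes recomputed under 15 alternatives, 363 kept direction and call, 9 gained a call, 18 lost one and 15 changed sign. Irf7, Stat2 and Irf9 kept direction and call against shScr under every alternative run, with log2 fold changes of -4.41 to -3.69, -2.57 to -1.95 and -2.26 to -1.48 over both comparisons. Irf1 did so as well. Signs changed on log2(TPM + 1) and log2(TPM + 0.1) for Stat3 in shPkm1 (0.074 and 0.075), for Ifnar2 in the libraries labelled shPkm2 (0.14 and 0.15), and between the hairpin groups for Irf1 (0.059 and 0.060) and Irf2 (0.013 and 0.014). With library totals they changed for Ifnar2 in shPkm2 (0.13) and, between the hairpin groups, for Irf1 (0.13) and Irf2 (0.076). Leaving out 1 library turned Irf1 (range -0.054 to 0.029) and Irf7 (range -0.091 to 0.18) between the hairpin groups. Among the named genes of the pathway lists signs changed for Il11ra1 in shPkm2 with library totals (0.014), on log2(TPM + 1) (0.110) and on log2(TPM + 0.1) (0.142), and for Stat6 in shPkm2 (0.047, 0.073 and 0.206). Leaving out 1 library turned Stat6 (range -0.736 to 0.330) and Socs3 (range -0.137 to 0.250) in shPkm2 and Ifi27 (range -0.016 to 0.518) in shPkm1. None of these 4 genes was called in that comparison with TMM scaling and all 6 libraries. These scalings move the median of all genes, and the cause of the other changes was not tested.

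Members called ranged from 6 to 8 in shPkm1, 7 to 7 in shPkm2 and 2 to 5 between hairpin groups when 1 library was left out, and transcripts called from 3 to 5, 4 to 10 and 0 to 2. DESeq2 called 15 transcripts in shPkm1 and 5 between the hairpin groups. All genes called lower went from 3966 to 1737 in shPkm1 and from 4319 to 2123 in shPkm2 on log2(TPM + 1). The replicate numbers do not pair the libraries: deviations of same-numbered libraries correlated at -0.026, 0.042 and 0.053 over 12643 genes. With the replicate block 8, 7 and 4 members and 7922, 8566 and 6682 genes were called, and transcripts of members called were 5 in shPkm1, 9 in shPkm2 and 1 between hairpin groups. With 2 libraries per group the precision rests on a spread shared across groups, and a lone library is assumed to vary like the others when its partner is left out.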

Other observations

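Between the hairpin groups, of 45 tested interferon-stimulated targets 8 were higher in the libraries labelled shPkm2 (25.7% of all genes were), 9 were lower (27.3% of all genes) and 28 were not called, with a median log2 fold change of 0.00. The 8 higher were 5 without either shPkm1 library and 12 with library totals. Cmpk2 had 6 and 6 counts in shPkm1 against 83 and 97 in shPkm2 (log2 fold change 3.75, adjusted p = 3.51e-07), and its neighbour Rsad2 had 7 and 9 against 68 and 67 (2.93, adjusted p = 8.88e-07), so both antiviral genes were less reduced in shPkm2. On log2(TPM + 1) these differences were 1.59 for Cmpk2 (limma adjusted p = 1.61e-06) and 1.13 for Rsad2 (2.43e-05). Usp18 was also higher there (0.61, adjusted p = 0.00186). The targets with the lowest values in this comparison were Tor3a, with 1605 and 1751 counts in shPkm1 against 700 and 644 in shPkm2 (-1.45, adjusted p = 7.91e-08), and Isg20, with 280 and 301 against 137 and 121 (-1.30, adjusted p = 2.89e-06), so both were more reduced in shPkm2. Ifit3 had 609 and 598 counts in shPkm1 against 373 and 354 in shPkm2 (-0.86, adjusted p = 8.18e-05). Of 24 tested targets of interferon-gamma and Irf1, 3 were higher (5 with library totals) and 9 lower in shPkm2, with a median of -0.28. The chemokine gene Cxcl9 was among the lower ones, with 45 and 48 against 11 and 11 counts (-2.20, adjusted p = 1.90e-05; -0.91 on log2(TPM + 1)), and Vcam1 among the higher ones (0.53, adjusted p = 0.00167).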
